A study of Mus musculus with 24 samples.

Results

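Cholangiocytes line the bile ducts inside the liver, and this study sequenced poly(A) RNA of cells isolated as intrahepatic cholangiocytes from mice with an antibody and magnetic beads. 4 of its libraries carried a strong heart muscle signal and are described here: female WT secretin 2, female WT secretin 3, female dnTGFB 1 and female dnTGFB 2. They were chosen by a measured value, the level of the cardiac actin gene Actc1, given as the count divided by the library's total and multiplied by 1000000 (CPM): of the 12 libraries labelled female, 4 had at least 5000 CPM (the heart-muscle-rich libraries) and the remaining 8 had less than 1000 CPM (the other female libraries). The whole series holds 24 libraries, in 8 groups of 3. The lowest of the 4 stood at 7276 CPM and the highest of the 8 at 393 CPM, so no library lay near either limit. Because the groups were made from the data, every comparison of the 4 with the 8 is a description without a test, and the treatment names play no part in it.

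The groups were WT (untreated wild-type mice, killed at 32 weeks of age), WT secretin, dnTGFB (untreated dnTGFBRII mice, which carry a dominant-negative form of a TGF-beta receptor and are the study's model of primary biliary cholangitis) and dnTGFB secretin. Secretin, a gut hormone that acts on bile ducts, was delivered from the age of 32 weeks by implanted osmotic pumps, replaced after 1 month, at a daily dose of 4 ug/kg over 8 weeks. Treated mice were killed at 40 weeks, so treatment and age cannot be told apart. The age of the untreated dnTGFB mice was not given in the sources used here. In the dnTGFB line the transgene is driven by the Cd4 promoter and acts in T cells. By the sources used here, each group pooled 6 to 8 mice into 1 cell preparation whose RNA was sequenced in 3 libraries. The libraries of a group are therefore repeats of 1 pool, and p-values measure only the spread between these libraries, which may be technical. Both heart-muscle-rich WT secretin libraries thus share their stated pool with WT secretin 1, which was not rich in heart muscle genes, and both dnTGFB libraries share theirs with dnTGFB 3.

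Several library labels disagreed with one another or with the data. The genotype label went against the title in 12 of the 24 libraries, 6 of them female and including all 4 heart-muscle-rich ones: libraries titled WT secretin carried the dominant-negative genotype, and libraries titled dnTGFB carried wild-type. Groups follow the titles here. The Y-linked genes were present in the 4 heart-muscle-rich libraries although all are labelled female. Ddx3y, a Y-linked RNA helicase, stood at 64.31, 59.1, 46.79 and 58.29 CPM in them (here and below the 4 values are in the order WT secretin 2, WT secretin 3, dnTGFB 1, dnTGFB 2), at 1.364 to 6.018 CPM in the other female libraries (median 3.827) and at 64.67 to 150.9 CPM in the 12 libraries labelled male (median 82.96). Eif2s3y, a Y-linked translation initiation factor, gave 55.59, 60.27, 50.26 and 63.65 CPM against 1.072 to 6.49 in the other female libraries and 32.64 to 93.63 in the male ones. For both genes the 4 libraries lay above all 8 others, with no overlap. Xist, the RNA that silences one X chromosome in female cells, was at 12.68, 29.67, 74.69 and 30.17 CPM in the 4, against 37.79 to 434.7 in the other female libraries (median 240.2) and 0.206 to 42.43 in the male ones (median 1.519). Xist was therefore lower but not at 0, and dnTGFB 1 overlapped the other female libraries, whose lowest values were those of WT 2 (37.79 CPM) and dnTGFB secretin 1 (39.25 CPM).

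Depth differed between the sides. The heart-muscle-rich libraries held 58005562 to 104003184 counts and detected 28320 to 30056 genes, and the other female libraries held 6483182 to 50136106 counts and detected 20129 to 28304 genes. To compare libraries at one depth, each was thinned to 6483182 counts and a chi-square per gene was computed for each pair, where 1 means agreement within sampling noise. The 6 pairs of heart-muscle-rich libraries gave 8.778 to 22.99 (WT secretin 2 with WT secretin 3 the lowest, WT secretin 2 with dnTGFB 1 the highest). The 32 pairs of a heart-muscle-rich with another female library gave 168.7 to 266.7, with no overlap with the first range. They include pairs under the same label. WT secretin 1 gave 261.5 with WT secretin 2 and 229.8 with WT secretin 3. dnTGFB 3 gave 175.9 with dnTGFB 1 and 220.3 with dnTGFB 2. The 28 pairs among the other female libraries ran from 1.651 (WT 2 with dnTGFB secretin 1) to 130.4, and WT secretin 1 with dnTGFB secretin 3 gave 2.632, so the closest pairs had different labels. dnTGFB 2 was nearer to WT secretin 3 (9.341) than to dnTGFB 1 of its own group (11.42). WT 2 and dnTGFB secretin 1 also stood apart from the remaining 6 in squamous epithelial, placental and biliary genes, and list counts that move by over 1.5 times when they are left out are given both ways.

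**Figure D1:**
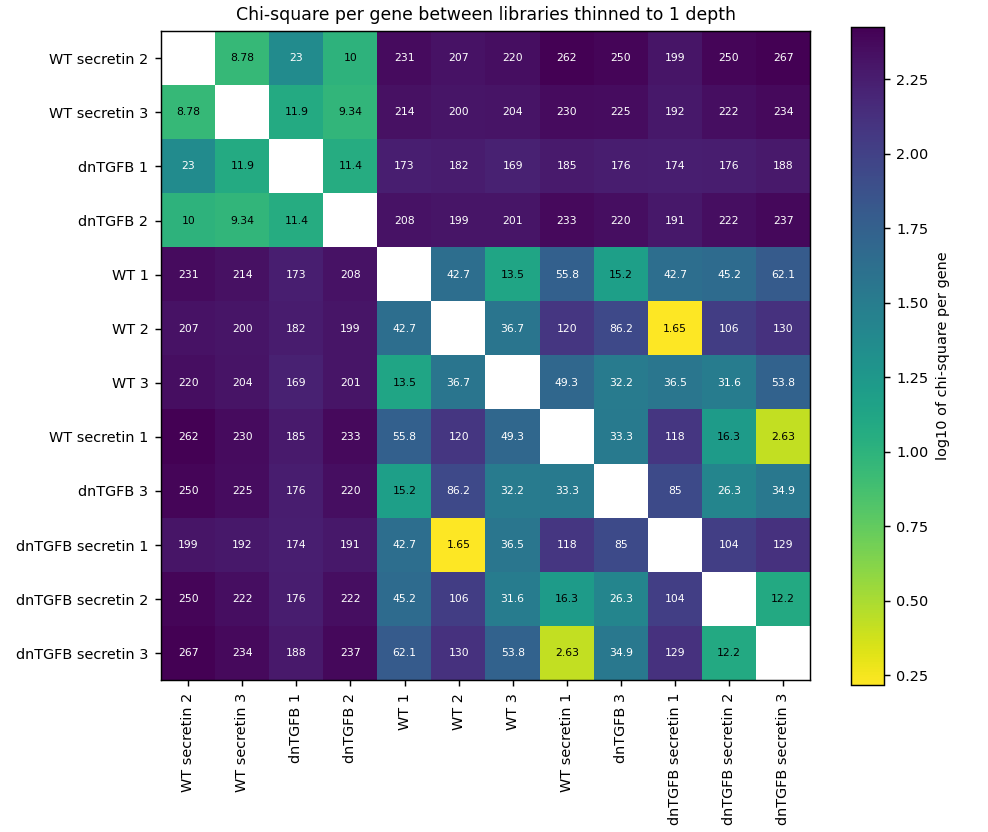
Chi-square per gene between each pair of the 12 female libraries after thinning to 6483182 counts, as a heat map whose axes list the libraries. The 4 heart-muscle-rich libraries form a block of low values (8.778 to 22.99) against 168.7 to 266.7 with the other 8, and WT 2 with dnTGFB secretin 1 gives the lowest value of all (1.651).

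Heart muscle contracts through sarcomeres, in which thick filaments of myosin pull on thin filaments of actin under the control of the troponin complex. Each beat starts when calcium enters through L-type channels, is released from the sarcoplasmic reticulum through the ryanodine receptor and is pumped back by SERCA2, and the work is paid for mainly by mitochondrial oxidation of fatty acids. Atrial and ventricular muscle use different light chains and hormones, and skeletal muscle uses other genes for several of the same parts, so the gene set carried by an RNA sample tells these muscles apart.

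Over all genes, 16020 had a median of at least 1 CPM on either side. A gene is called apart where all 4 libraries lay above (or below) all 8 and the medians differed at least 2-fold on log2(CPM + 0.1), and the other genes of a list are counted as neither, because the sides overlapped or differed by less. By this rule 1909 genes were higher in the heart-muscle-rich libraries, 11.9% of those kept, and 3793 were lower, 23.7%. These shares are the background for every list below, and since the libraries were chosen by the same measure nothing is read from them. The split depends on the scaling: with totals scaled by the trimmed mean of M-values (TMM), 3536 were higher and 1485 lower of 15940, and the median log2 ratio over all genes moved from -0.63 to 0.13. In CPM a large share taken by some genes lowers all others, and the cardiac sarcomere, cardiac energy and mitochondrially encoded genes took 28.89 to 35.7% of the counts in the 4 libraries and 8.498 to 31.72% in the 8, so these shares overlapped. All list medians given below kept their sign under TMM. In bulk RNA, fewer cells of a type and less RNA per cell cannot be told apart. Without WT 2 and dnTGFB secretin 1 the counts became 1870 higher (11.58%) and 5649 lower (34.98%) of 16147 genes.

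The heart programme was led by the sarcomere, all of whose 26 listed genes were higher, with a median log2 ratio of 5.58. The list and its sum include Actc1, whose separation was fixed by the choice of libraries. Their summed level was 77750, 86500, 76600 and 78090 CPM in the heart-muscle-rich libraries against 862.8 to 4208 CPM (median 2056) in the other female libraries, so 37.9-fold higher at the medians. Actc1 (ENSMUSG00000068614, chromosome 2, 114047282 to 114053548, minus strand, in the GRCm38 build), the cardiac alpha-actin of the thin filament, was used for the choice. It read 8347, 7276, 7480 and 7681 CPM in the 4 libraries, that is 422028 to 868112 counts, and 56.81 (WT 1) to 393 CPM (dnTGFB secretin 1) in the 8, with a median of 148.6. The signal was therefore also above 0 in each of the 8, down to 583 counts in WT 1. Myh6 (ENSMUSG00000040752, chromosome 14, 54941921 to 54966927, minus strand), the fast alpha-myosin heavy chain of the adult mouse heart, read 13400, 21170, 19300 and 15570 CPM against 122.8 to 798.1 (median 317.7). Tnnt2 (chromosome 1, 135836354 to 135852260, plus strand), cardiac troponin T, which anchors the troponin complex, read 8800, 10180, 8019 and 9081 CPM against 74.26 to 445.1 (median 196.3). Neither gene overlapped between the sides.

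The other parts of the sarcomere followed with the same separation. Tnni3, cardiac troponin I, read 4314, 4668, 4161 and 4264 CPM against 32.74 to 209.2 (median 89.0). Mybpc3, cardiac myosin-binding protein C, read 2365, 2442, 2181 and 2572 CPM against 16.37 to 114.5 (median 44.17). Ttn, the giant spring protein titin, read 1758, 2524, 2198 and 2167 CPM against 16.47 to 113.8 (median 43.8). The smallest log2 ratio of the list was that of Ankrd1, a stretch-responsive titin partner also made outside muscle, at 2.41: it read 684.5, 669.1, 508.2 and 568.1 CPM against 33.78 to 241.6. Myh7, the slow beta-myosin heavy chain used by the fetal and the failing mouse heart, read 118, 300.5, 206.7 and 168.2 CPM against 1.949 to 10.7 (median 4.409). Per kilobase of transcript, Myh6 exceeded Myh7 by 153.7, 95.31, 126.3 and 125.2 times in the 4 libraries. The adult myosin thus dominated in each of them.

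The sarcomere genes were higher together, and the DNA before their start sites is shown for 4 of them, the selected marker genes Actc1 and Tnnt2 and 2 light chain genes with well-known muscle elements. The windows are RefSeq's, on GRCm38.p6, and give the 150 bases before RefSeq's annotated start, 5′ to 3′ on the gene's strand. This start can differ from the gene bounds of the GENCODE annotation used elsewhere here. The Actc1 and Myl3 windows lie inside those bounds. Capitals mark a CArG box (the site bound by serum response factor) or the letters CATTCC (the core bound by TEAD factors). Actc1 is shown from chr2:114052876-114053025 on the minus strand, Myl3 from chr9:110763528-110763677 on the plus strand, Myl7 from chr11:5898783-5898932 on the minus strand, and Tnnt2 from chr1:135836184-135836333 on the plus strand (the first of its 2 windows).
Actc1: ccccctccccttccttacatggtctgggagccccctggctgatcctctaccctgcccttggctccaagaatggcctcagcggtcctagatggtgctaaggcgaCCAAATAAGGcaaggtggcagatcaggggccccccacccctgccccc
Myl3: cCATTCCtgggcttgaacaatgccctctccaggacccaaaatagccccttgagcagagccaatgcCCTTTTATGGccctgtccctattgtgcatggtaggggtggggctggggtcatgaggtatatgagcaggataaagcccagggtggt
Myl7: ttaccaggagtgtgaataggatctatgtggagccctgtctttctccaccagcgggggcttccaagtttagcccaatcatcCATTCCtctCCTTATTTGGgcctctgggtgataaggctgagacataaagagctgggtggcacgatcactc
Tnnt2: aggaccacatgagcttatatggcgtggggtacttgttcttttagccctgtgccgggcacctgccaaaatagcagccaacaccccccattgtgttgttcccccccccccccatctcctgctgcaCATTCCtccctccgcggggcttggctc
In these windows the CArG box began 47 bases before the start in Actc1, 85 in Myl3 and 61 in Myl7, and CATTCC began 149 bases before it in Myl3, 70 in Myl7 and 27 in Tnnt2. Both strands were searched, over the whole window of 250 bases before to 50 bases after the start. Of 26 sarcomere genes 22 had a window, 30 in all. A CArG box was found in 7 of the 30 (23.3%; Actc1, Ldb3, Myl3, Myl7, Myom1 and Nebl). It was found in 535 of all 32851 windows (1.63%) and in 2 of 25 hepatocyte windows (8.0%), both of 1 gene. A MEF2 element was found in 3 of the 30 (Mybpc3, Myoz2 and Ttn), against 0.557% of all windows and 1 of 25 hepatocyte windows (4.0%). CATTCC was found in 10 of the 30 (33.3%), against 14.7% of all windows and 16.0% of hepatocyte windows. TATAAA was found in 3 of the 30, against 13.6% of all windows and 28.0% of hepatocyte windows. A match describes the letters in the window and not a bound site.

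**Figure D2:**
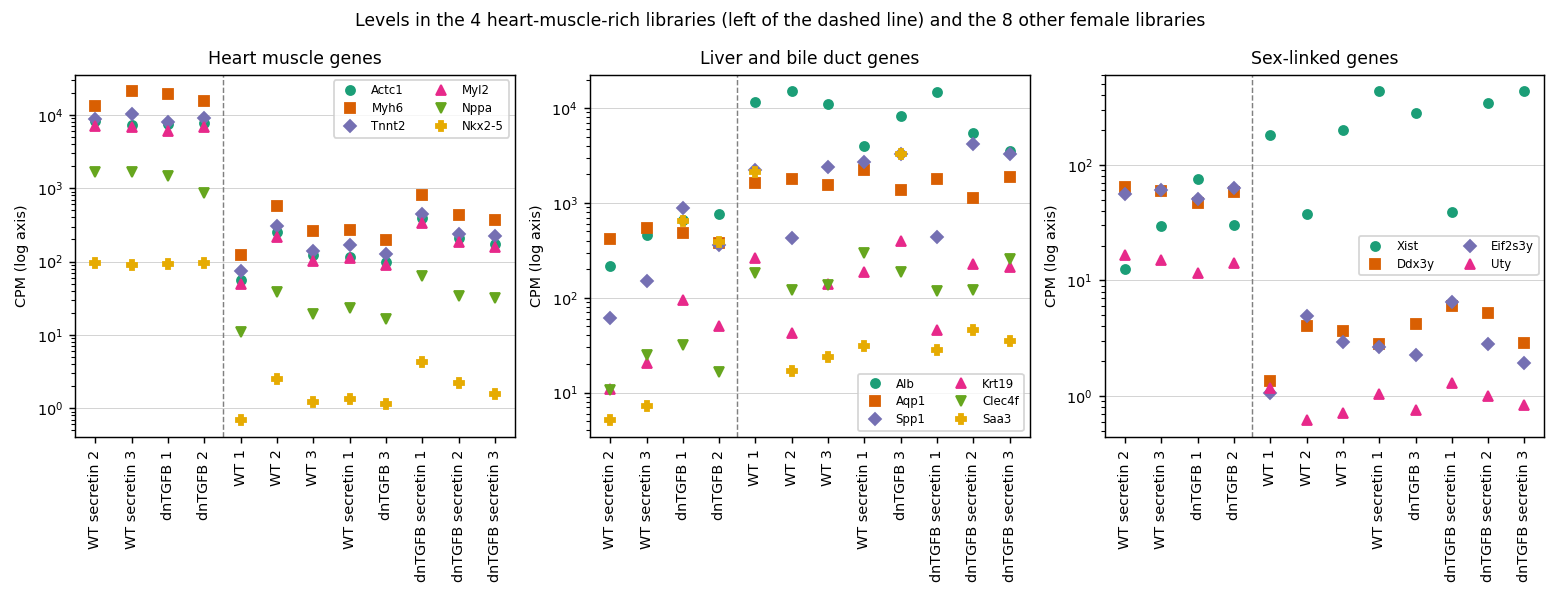
Level of each gene (CPM, log scale) in each of the 12 female libraries, with the 4 heart-muscle-rich libraries left of the dashed line, in 3 panels of heart genes, liver genes and sex-linked genes. Each heart gene is higher in all 4 libraries than in any other (Actc1 7276 to 8347 against 56.81 to 393 CPM), Alb and Aqp1 are lower in all 4, Krt19, Spp1 and Saa3 overlap, and Ddx3y is at 46.79 to 64.31 CPM in the 4.

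Calcium handling and energy genes showed the working parts of the muscle cell besides its filaments. Of 16 calcium handling genes 15 were higher and 1 was lower, with a median log2 ratio of 4.42 and a summed level of 20000, 19530, 18370 and 20130 CPM against 1122 to 1925. Ryr2, the calcium release channel, read 657.9, 737.7, 667.4 and 650.1 CPM against 5.36 to 38.43 (median 15.87). Atp2a2, the pump SERCA2, read 10430, 10530, 10150 and 10720 CPM against 255.2 to 687.7 (median 434.3). Its brake phospholamban, Pln, read 4553, 4189, 3827 and 4745 CPM against 34.69 to 235.4 (median 88.58). All 3 genes varied far less within the 4 libraries than between the sides. All 24 energy genes were higher, with a median log2 ratio of 4.17 and a summed level of 48000, 45870, 39490 and 45180 CPM against 1573 to 3385. Mb, myoglobin, which stores oxygen, read 15190, 13090, 11320 and 13220 CPM against 86.54 to 636.8 (median 226.1). Ckm, the muscle creatine kinase, read 2752, 2394, 2123 and 2447 CPM against 19.69 to 108.3 (median 41.92). Cpt1b, the muscle gate for fatty acid entry into mitochondria, read 79.44, 78.99, 77.34 and 77.06 CPM against 0.709 to 3.658. The mitochondrially encoded genes showed no such separation: 3 of 13 were higher, and they made up 17.29 to 23.12% of counts in the 4 libraries and 8.028 to 31.15% in the 8.

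Both heart chambers were represented. Of 11 ventricular genes 9 were higher, 1 was lower and 1 was neither, with a summed level of 20190, 19250, 16830 and 19710 CPM against 297.4 to 1097. Myl2, the ventricular regulatory light chain, read 7010, 6897, 6031 and 6902 CPM against 49.21 to 335.9 (median 135.4). Irx4, a ventricular transcription factor, read 41.35, 31.86, 37.57 and 37.42 CPM against 0.292 to 10.64, where the highest other value was that of WT 2. These ventricular genes were at similar levels in the 4 libraries. Of 12 atrial genes 7 were higher, 2 (the nuclear receptors Nr2f1 and Nr2f2, which liver endothelium also expresses) were lower and 3 were neither, with a summed level of 4889, 5103, 4680 and 2920 CPM against 642.8 to 937.1. Myl7, the atrial light chain, read 589.7, 611.9, 558.0 and 357.8 CPM against 4.97 to 23.99 (median 10.14). Nppa, the atrial natriuretic peptide gene, read 1674, 1682, 1482 and 860.5 CPM against 10.82 to 62.58 (median 27.2). Bmp10, a ligand made by right atrial muscle, read 124.8, 110.9, 139.1 and 11.36 CPM against 4.782 to 20.13. dnTGFB 2 was the lowest of the 4 for each of these 3 atrial genes and overlapped the other female libraries for Bmp10. Per kilobase, Myl2 exceeded Myl7 by 3.597, 3.41 and 3.27 times in the first 3 libraries and by 5.837 times in dnTGFB 2.

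Cardiac transcription factors differed among themselves. Of 18 listed, 16 were kept, 7 were higher (Nkx2-5, Tbx5, Tbx20, Tbx18, Myocd, Irx4 and Esrrg) and 9 were neither, with none lower. Nkx2-5, the homeobox factor of the heart, read 94.06, 90.16, 93.96 and 94.34 CPM against 0.682 to 4.209 (median 1.443). Tbx5, of the atria and left ventricle, read 35.33, 36.48, 35.62 and 25.58 CPM against 0.195 to 1.77. Gata4, which liver endothelium and stellate cells also make, read 93.67, 104.7, 96.03 and 86.25 CPM against 102.8 to 196.6 (median 152.1), and its log2 ratio of -0.68 became 0.06 under TMM. Of 19 ion channel and junction genes 14 were higher and 5 were neither, of which 1 was lower without WT 2 and dnTGFB secretin 1. Hcn4, the pacemaker channel, read 11.17, 7.292, 9.485 and 8.379 CPM against 0.0975 to 0.708, low in level but without overlap. Nppb, a hormone that the stretched ventricle makes, varied among the 4 libraries, at 211.2, 80.92, 117.9 and 97.05 CPM against 0.877 to 7.119.

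Skeletal and smooth muscle genes were higher in part, while the regulators of skeletal muscle were near 0. Of 29 skeletal muscle genes 13 were kept and 7 of these were higher (Acta1, Tnnt1, Myl1, Mybpc2, Casq1, Ckm and Cacna1s; 9 higher and 1 lower without WT 2 and dnTGFB secretin 1), and the summed level of the list (3256, 2712, 2395 and 2785 CPM against 59.54 to 306.6) was mostly Ckm. The fast skeletal myosin gene Myh4 read at most 0.0962 CPM in the 4 libraries and up to 7.67 in the 8, and the skeletal muscle regulators Myod1, Myog, Myf5, Myf6 and Pax7 were at or below 0.101 CPM in all 12. Acta1, the skeletal alpha-actin that heart muscle also makes, read 369.5, 201.4, 157.2 and 231.4 CPM against 6.99 to 112.6 (median 9.734). Tnnt2 exceeded the fast skeletal Tnnt3 by 4450, 2460, 2807 and 3151 times per kilobase. Of 12 smooth muscle genes 5 were higher, among them Des and Pln, which the heart makes, 1 was lower (3 without WT 2 and dnTGFB secretin 1) and 6 were neither. Acta2, the smooth muscle actin, read 130.9, 122.9, 127.5 and 97.67 CPM, within the 31.62 to 169.5 of the 8.

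Genes of cells that accompany heart muscle differed by list, where 11.92% of all genes were higher and 23.68% lower. Of 10 genes of cardiac and other capillary endothelium 5 were higher (Cd36, Rgcc, Cdh11, Meox2 and Tcf15), 2 were lower (Aqp1 and Gpihbp1) and 3 were neither. Tcf15, a transcription factor of heart and muscle capillaries, read 35.09, 43.98, 34.93 and 34.63 CPM against 1.169 to 3.695 (median 2.942). Cd36, the fatty acid transporter of muscle cells and capillaries, read 1574, 1333, 1186 and 1425 CPM against 238.4 to 363.3 (median 293.5). Of 10 epicardial and mesothelial genes 5 were higher and 5 were neither, while without WT 2 and dnTGFB secretin 1 there were 4 higher and 3 lower. Their summed level, 124.9, 198.9, 477.5 and 251.6 CPM, was below the median of the 8 (1044) and overlapped their range of 241.9 to 1732. The list holds the keratin genes Krt8 and Krt19, which are also in the biliary identity list. They made up most of the sum in the 8, with medians of 774.1 and 199 CPM there. The sum therefore does not describe epicardium and mesothelium alone. Upk3b, a membrane protein of mesothelium, read 31.91, 46.87, 33.9 and 26.58 CPM against 1.783 to 7.38 (median 4.087). Of 13 kept genes of cardiac fibroblasts and valves 2 were higher, 1 was lower (4 without WT 2 and dnTGFB secretin 1) and 10 were neither. The count of 2 is near the share over all genes, and the median log2 ratio of this list was -0.81. Its summed level of 756.5, 830.6, 1027 and 671.3 CPM lay below the median of the 8 (1763) and overlapped their range of 914.3 to 3694. Of 10 kept fat cell genes 4 were higher (8 without WT 2 and dnTGFB secretin 1), among them Plin4, a lipid droplet coat protein also found in muscle, at 107.7, 135.7, 113.6 and 124.8 CPM against 2.632 to 6.841 (median 3.83). Adipoq, the fat cell hormone adiponectin, read 4.288, 2.5, 1.944 and 1.536 CPM and overlapped the 0 to 8.181 of the 8. The 4 haemoglobin genes were higher and differed widely among the 4 libraries. Hba-a1, an alpha-globin gene, read 887.0, 221.7, 334.8 and 3080 CPM against 27.29 to 120.6 (median 38.92). It has a near-identical copy, Hba-a2, and the counting could split their reads. dnTGFB 2 was the highest in all 4 globin genes, and the share of red cells in this difference was not tested.

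The genes with the widest gap between the sides were mostly muscle genes on one side and pancreatic digestive enzymes on the other. Among protein-coding genes with a median of at least 10 CPM in the heart-muscle-rich libraries, the 12 widest gaps (lowest of the 4 over highest of the 8) included those of Lrrc10 (25.07-fold), Asb15, Gja3, Hhatl, Cox6a2, Apobec2, Trim55, Nkx2-5, Art5, Cpt1b and Hrc (20.7-fold). Lrrc10, a heart-restricted leucine-rich repeat protein, read 88.38, 80.13, 68.04 and 84.5 CPM against 0.780 to 2.714 (median 1.589). In the other direction, the 12 widest gaps were those of Cela2a (16.06-fold), Prss2, Cel, Cyp3a44, Try4, Pnlip, Zg16, Pnliprp1, Cpb1, Ctrl, Sycn and Clec4g (8.29-fold). Of these, most encode enzymes or granule proteins of pancreatic acinar cells, Cyp3a44 is a liver cytochrome and Clec4g a lectin of liver sinusoids. Cela2a, an acinar elastase, read 0.750, 1.534, 1.542 and 0.529 CPM in the 4 libraries against 24.75 to 255.0 (median 116.4). The 12 listed acinar genes had a summed level of 7.269, 15.17, 32.39 and 13.37 CPM against 225.5 to 1542. Pancreatic transcripts, which bile duct cells do not define, were thus measurable in each of the other female libraries and lower in all 4 heart-muscle-rich ones.

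**Figure D3:**
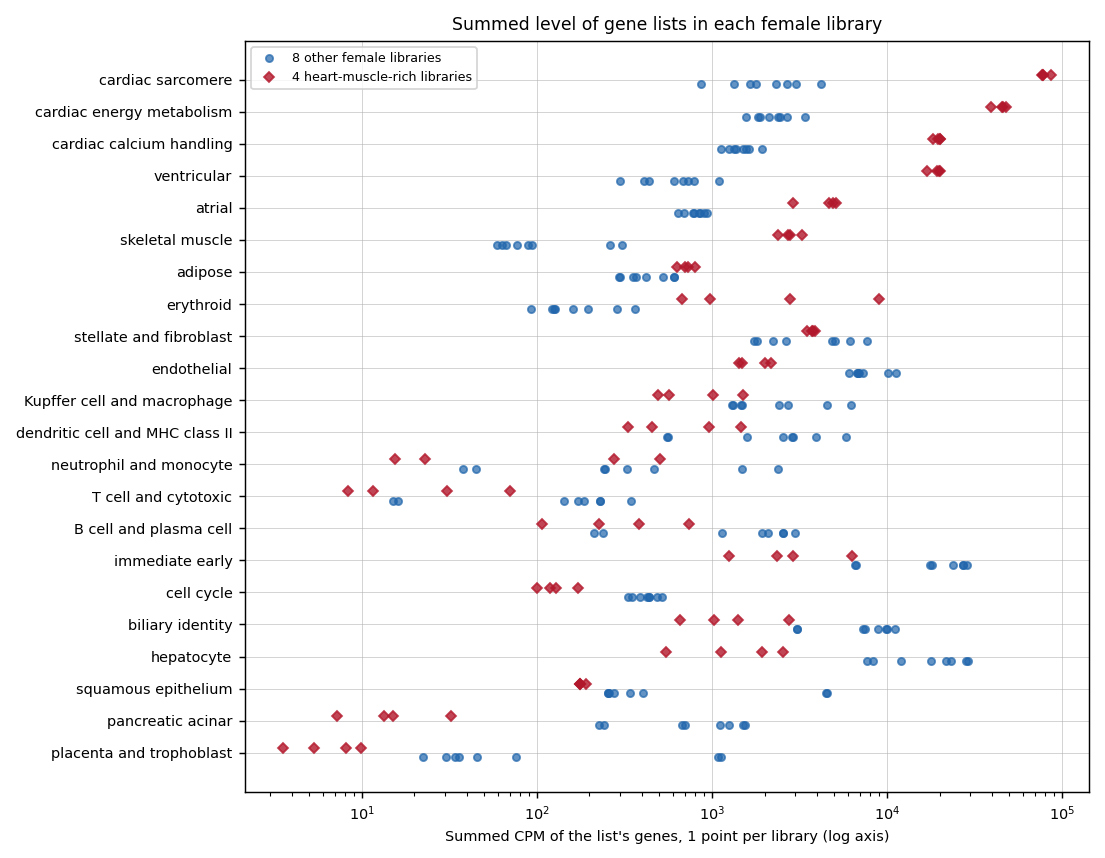
Summed level (CPM, log scale) of the genes of 22 lists in each female library; red diamonds are the 4 heart-muscle-rich libraries and blue circles the other 8. The sarcomere sum is 76600 to 86500 against 862.8 to 4208 CPM, the biliary and hepatocyte sums are lower in all 4, and the neutrophil and Kupffer cell sums overlap.

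The summed level of bile duct genes was lower in the heart-muscle-rich libraries, but the genes remained measurable. The summed level of the 30 biliary identity genes was 654.9, 1024, 2758 and 1418 CPM, that is 7.991, 12.49, 33.66 and 17.3% of the median of the other female libraries (8195 CPM), whose range was 3065 to 11180. 25 of the 30 read at least 1 CPM in all 4 libraries. The sums did not overlap, with dnTGFB 1 the highest of the 4 and WT 2 (3065 CPM) and dnTGFB secretin 1 (3068 CPM) the lowest of the 8. Gene by gene, 8 were lower and 22 were neither, with a median log2 ratio of -2.98. Over all genes 23.68% were lower, so the count of 8 is near that share and is not particular to bile duct genes. Without WT 2 and dnTGFB secretin 1 all 30 were lower, with a median of -3.15, against 34.98% lower over all genes. Krt19, the keratin that defines bile duct cells, read 10.97, 20.27, 94.42 and 50.59 CPM against 42.42 to 397.7 (median 199). Epcam, the surface adhesion protein of bile duct cells, read 4.49, 11.71, 51.93 and 23.49 CPM against 23.75 to 256.5 (median 166.3). Spp1, the secreted protein osteopontin, read 60.53, 148.7, 875.1 and 357.9 CPM against 425.6 to 4221 (median 2557). All 3 overlapped through dnTGFB 1, and Krt19 also through dnTGFB 2, while both WT secretin libraries lay below all 8 in each.

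The secretin pathway, which the study's treatment addresses, acts through the secretin receptor on bile duct cells, raises cyclic AMP and opens the chloride channel CFTR, after which the exchanger AE2 secretes bicarbonate. The receptor gene Sctr read 0.25, 0.586, 2.666 and 0.918 CPM in the 4 libraries against 0.118 to 13.76 (median 6.315), with overlap. Cftr read 0.413, 0.879, 4.625 and 1.736 CPM against 0.926 to 22.87 (median 13.38), again with overlap. Slc4a2, the gene of AE2, read 33.53, 35.15, 41.3 and 36.44 CPM against 33.47 to 71.39 (median 46.58), and its log2 ratio of -0.38 became 0.36 under TMM. The hormone gene Sct was at or below 0.125 CPM in all 4 libraries and at 0.296 to 6.215 CPM in the 8. Sct lay below all 8 in each of the 4 but did not reach the median of 1 CPM needed to be kept, and the other 3 genes met the rule in neither direction. Of the 21 listed genes 19 were kept, 4 were higher (Adcy5, Prkaca, Car4 and Slc26a6), 5 were lower (Car2, Vipr1, Aqp1 and Tgfbr2 among them; 9 without WT 2 and dnTGFB secretin 1) and 10 were neither. Adcy5, an adenylyl cyclase of heart muscle, read 84.57, 74.27, 72.97 and 72.54 CPM against 7.558 to 20.32 (median 13.31). Aqp1, the water channel of bile ducts and capillaries, read 420.3, 544.2, 482.5 and 379.7 CPM against 1138 to 2202 (median 1704). Tgfbr2, the receptor whose dominant-negative form names the model, read 53.34, 56.87, 59.74 and 48.3 CPM against 87.3 to 185.2 (median 118.7). This count does not separate the transgene from the endogenous gene, so it does not check the genotype labels.

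Hepatocyte genes were lower as well. Of 30 hepatocyte genes 24 were lower and 6 were neither, with a median log2 ratio of -3.39 (-3.03 without WT 2 and dnTGFB secretin 1), and all 30 read at least 1 CPM in all 4 libraries. Their summed level was 547.9, 1122, 1932 and 2551 CPM, that is 2.758, 5.647, 9.728 and 12.84% of the median of the 8 (19860 CPM), whose lowest was 7658. Alb, serum albumin, read 217.9, 457.6, 668.0 and 766.0 CPM against 3544 to 15170 (median 9617). Apob, the protein of very low density lipoprotein, read 8.086, 14.79, 24.48 and 34.9 CPM against 107.1 to 591.8 (median 346.3). The 4 libraries kept the same order in both genes, from WT secretin 2 up to dnTGFB 2. Of 17 genes of bile acid synthesis and export 11 were lower, 5 were neither and 1, Abcb4, was higher. Cyp7a1, the rate-limiting enzyme of bile acid synthesis, read 0.125, 0.207, 0.833 and 0.668 CPM against 1.296 to 12.49 (median 5.52). Slc10a1, the bile acid uptake carrier of hepatocytes, read 1.019, 1.465, 2.389 and 4.289 CPM against 11.11 to 50.13 (median 33.08). Abcb4, the phospholipid floppase of the bile canaliculus, which mouse heart muscle also makes, read 32.83, 26.27, 25.76 and 36.19 CPM against 4.767 to 12.48 (median 11.02).

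Most endothelial genes were lower, among them those of liver sinusoids, while most stellate cell and fibroblast genes were neither. Of 17 endothelial genes 11 were lower and 6 were neither, and the summed level was 1487, 2162, 2022 and 1425 CPM against 6087 to 11240. Clec4g, the sinusoidal lectin, read 41.56, 103.7, 109.2 and 48.34 CPM against 905.0 to 1465 (median 1194). Stab2, the scavenger receptor of sinusoids, read 22.09, 50.48, 65.98 and 28.87 CPM against 353.0 to 603.8 (median 382.1). Cdh5, the cadherin of all endothelia, was closer, at 154.1, 188.5, 158.1 and 141.4 CPM against 197.2 to 423.9 (median 230.8). Of 17 stellate cell and fibroblast genes 6 were lower, 10 were neither and 1, Des, the intermediate filament gene that heart muscle also makes, was higher. Their summed level, 3753, 3797, 3863 and 3509 CPM, lay within the 1739 to 7673 of the 8. Des alone gave 1732, 1711, 1482 and 1655 CPM of these sums, against 52.43 to 149.3 CPM in the 8. The sums therefore do not compare stellate cells and fibroblasts alone. Lrat, which stores vitamin A in stellate cells, read 1.538, 3.62, 15.9 and 4.299 CPM against 59.93 to 161.5 (median 73.64). Dcn, a collagen-binding protein of all fibroblasts, read 442.2, 485.7, 567.3 and 414.6 CPM within the 219.0 to 1821 of the 8, and its log2 ratio of -0.74 became 0.20 under TMM.

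Most immune genes were neither higher nor lower by the rule against all 8 other libraries, as were 64.41% of all genes. Without WT 2 and dnTGFB secretin 1 the counts of lower genes rose in 4 of the 5 lists. Over all genes the lower share rose from 23.68% to 34.98%, so a rise is not particular to immune genes. Of 18 Kupffer cell and macrophage genes 6 were lower (Clec4f, Timd4, Vsig4, Cd5l, Cd68 and Mrc1) and 12 were neither. The summed level was 494.2, 571.0, 1514 and 1021 CPM against 1311 to 6228 (median 1951). Clec4f, the lectin that defines mouse Kupffer cells, read 10.68, 24.79, 31.69 and 16.59 CPM against 118.6 to 298.1 (median 160). Csf1r, the growth factor receptor of all macrophages, read 43.39, 50.98, 118.2 and 80.14 CPM against 52.13 to 434.1 (median 124), and its log2 ratio of -0.92 became 0.02 under TMM. Of 12 kept neutrophil and monocyte genes all 12 were neither, with sums of 15.57, 23.03, 508.6 and 275.6 CPM against 37.79 to 2390. Of 12 kept dendritic cell and MHC class II genes 2 were lower, of 18 T cell and cytotoxic genes 1 (Lck), and of 14 B cell genes 2 (Cr2 and Mzb1), with the rest neither. Without WT 2 and dnTGFB secretin 1, 6 of 13 kept neutrophil and monocyte genes were lower, 9 of 13 dendritic cell and MHC class II genes, 15 of 19 T cell and cytotoxic genes and 8 of 15 B cell genes, against 6 of 18 Kupffer cell and macrophage genes as before. T cell and cytotoxic genes were scarce, with sums of 8.346, 11.53, 70.04 and 30.78 CPM against 15.1 to 343.7. In each immune list dnTGFB 1 had the highest sum of the 4, dnTGFB 2 the second and WT secretin 2 the lowest.

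Genes of cell stress at isolation and of growth were lower as well. Of 20 immediate early and heat shock genes, which respond to tissue handling within minutes, 11 were lower and 9 were neither (20 lower without WT 2 and dnTGFB secretin 1), with sums of 1254, 2364, 6289 and 2903 CPM against 6573 to 28530 (median 20930). Fos, a subunit of the AP-1 factor, read 126.9, 286.9, 849.8 and 380.3 CPM against 1006 to 4007 (median 3085). Of 20 cell cycle genes 19 were lower and 1 was neither. Top2a, the topoisomerase of dividing cells, read 2.067, 2.362, 4.763 and 4.07 CPM against 15.3 to 26.45 (median 20.48). Of 15 interferon response genes 9 were lower and 6 were neither (13 lower without WT 2 and dnTGFB secretin 1). The order of the 4 libraries for Fos, with dnTGFB 1 highest and WT secretin 2 lowest, was that of the biliary genes.

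Among the heart-muscle-rich libraries themselves, the labelled groups could be tested, since the choice by Actc1 did not use the contrast of dnTGFB 1 and 2 with WT secretin 2 and 3. With edgeR's quasi-likelihood test and Benjamini-Hochberg adjustment, 355 of 20215 genes differed at an adjusted p below 0.05 and at least 2-fold: 344 were higher in dnTGFB (1.7%) and 11 lower (0.0544%). At the adjusted p alone, by which list members are counted, the shares were 1.74% higher and 0.0643% lower, and the median log2 fold change of all genes was -0.03. Of 26 sarcomere genes 0 passed (median log2 fold change -0.20), and of 24 energy genes 0 (median -0.20). Of 12 atrial genes 0 passed (median -0.44). With so few genes passing over all genes, these counts do not show that heart genes were at equal levels. Myh6 changed by -0.07 ± 0.22 (log2, SE, adjusted p = 0.956). By their titles these groups differ in genotype and in treatment, which cannot be told apart. The number of calls moved with the method, to 998 with DESeq2, 206 with limma-voom and 48 with library totals in place of TMM. It also moved with the libraries, to 202 without WT secretin 2, 803 without WT secretin 3 and 1206 without dnTGFB 2.

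Inflammatory genes of myeloid cells showed the largest increases in dnTGFB. Saa3, an acute-phase protein made by macrophages and epithelia (chromosome 7, 46711998 to 46715700), read 5.086 and 7.137 CPM in the WT secretin libraries and 640.6 and 388.8 CPM in the dnTGFB ones, a log2 fold change of 6.30 ± 0.28 (SE, adjusted p = 0.00217). Chil3, a chitinase-like protein of activated macrophages and neutrophils, read 2.24 and 3.465 against 293.9 and 160.6 CPM, a log2 fold change of 6.23 ± 0.33 (adjusted p = 0.00373). Clec4e, a receptor for microbial and cell debris ligands, read 0.413 and 0.655 against 37.41 and 18.5 CPM, a log2 fold change of 5.63 ± 0.38 (adjusted p = 0.0057). Acod1, which makes itaconate in activated macrophages, rose by 4.93 ± 0.42 (adjusted p = 0.0134). In each of the 4 genes the 2 groups did not overlap, and dnTGFB 1 stood above dnTGFB 2. Among the other female libraries Saa3 was high in WT 1 (2104 CPM) and dnTGFB 3 (3286 CPM) and at 16.81 to 45.13 CPM in the remaining 6, so a high level was not particular to the dnTGFB title. Chil3 was at 911.3 CPM in WT 1, 1477 CPM in dnTGFB 3 and 8.907 to 24.61 CPM in the remaining 6. Of 15 neutrophil and monocyte genes tested 10 rose and 0 fell, with a median log2 fold change of 3.91. Ly6c2, of inflammatory monocytes, rose by 4.85 ± 0.35 (adjusted p = 0.0057), and S100a8, a subunit of calprotectin, by 3.95 ± 0.36 (adjusted p = 0.0129). Of 18 Kupffer cell and macrophage genes 9 rose and 0 fell, among them Marco, a scavenger receptor, by 3.11 ± 0.37 (adjusted p = 0.0232) and Adgre1, the macrophage antigen F4/80, by 1.47 ± 0.18 (adjusted p = 0.0196). Of 14 dendritic cell and MHC class II genes 6 rose (H2-Aa, H2-Ab1, H2-Eb1, Cd74, H2-DMa and H2-DMb1).

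Liver genes rose in the same contrast, as did the summed levels of their lists. The biliary sum was 2758 and 1418 CPM in the dnTGFB libraries against 654.9 and 1024 CPM in the WT secretin ones. The hepatocyte sum was 1932 and 2551 CPM against 547.9 and 1122 CPM. For these genes and the myeloid ones above, more cells of a type and more RNA per cell cannot be told apart. Of 30 biliary genes 7 rose and 0 fell, with a median log2 fold change of 2.06. They were Krt19, Cldn4 and Cldn7 (tight junction proteins), Muc1 (a surface mucin), Cd24a, Elf3 (an epithelial transcription factor) and Mmp7 (a matrix protease of injured bile ducts). Krt19 rose by 2.13 ± 0.34 (adjusted p = 0.0483), and Mmp7 rose by 4.42 ± 0.38 (adjusted p = 0.0134) from 1.673 and 2.551 CPM to 65.86 and 30.77 CPM. Spp1 (2.47 ± 0.51, adjusted p = 0.0902), Sctr (2.03 ± 0.59, adjusted p = 0.181) and Cftr (2.22 ± 0.53, adjusted p = 0.103) did not pass. Of 30 hepatocyte genes 9 rose and 0 fell, with a median of 1.44. Hp, the acute-phase protein haptoglobin, rose by 2.46 ± 0.19 (adjusted p = 0.00715), and Arg1, the urea cycle enzyme that macrophages also make, by 3.76 ± 0.36 (adjusted p = 0.0167). Alb gave 1.02 ± 0.29 and did not pass (adjusted p = 0.17). Of 17 endothelial genes 0 passed, with a median of -0.22, of 15 B cell genes 0 passed, and of 20 T cell and cytotoxic genes 1, the chemokine Ccl5, rose (4.78 ± 0.34, adjusted p = 0.0057). Without WT secretin 2, Krt19 and Marco were among 31 of 62 listed or named genes that no longer passed, and with library totals in place of TMM 46 of the 62 did not.

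Among the few decreases were 5 epithelial keratins and a mitochondrial enzyme. Of 17 squamous epithelial genes tested 5 fell and 0 rose: Krt5 by 1.72, Krt14 by 1.66, Krt4 by 1.85, Krt13 by 1.93 and Krt6a by 1.91 on the log2 scale. All 5 are keratins of stratified epithelium, which neither heart muscle nor bile ducts form, and all 5 no longer passed without WT secretin 2. Lars2, the mitochondrial leucyl-tRNA synthetase, read 426.8 and 493.2 against 260.8 and 227.6 CPM, a log2 fold change of -1.01 ± 0.14 (adjusted p = 0.0222), and in the other female libraries it read 438.7 to 1354 CPM.

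**Figure D4:**
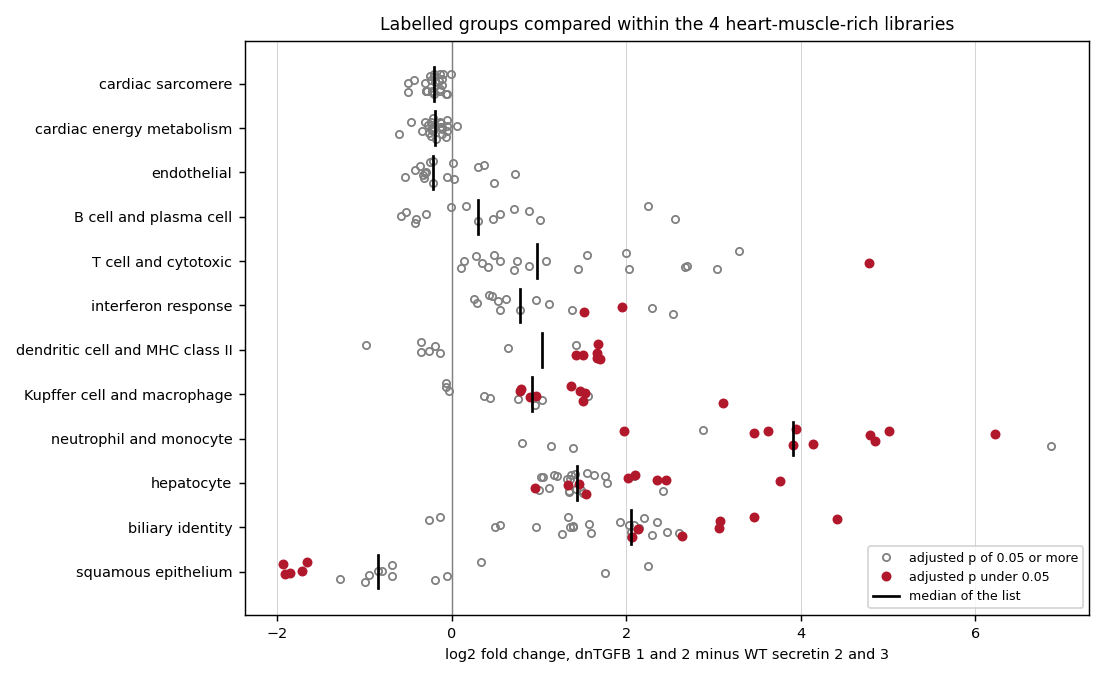
Log2 fold change of each list member between the dnTGFB and the WT secretin libraries among the 4 heart-muscle-rich libraries, for 12 lists; red points have an adjusted p below 0.05 and the black line is the list's median. Sarcomere and energy genes lie near 0 (medians -0.20) with none red, while biliary (median 2.06), hepatocyte (1.44) and neutrophil genes (3.91) lie above 0.

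The heart-muscle-rich libraries also bear on the study's own comparisons, since 2 of the 3 WT secretin and 2 of the 3 dnTGFB libraries are among them. Over all 12 female libraries, edgeR's quasi-likelihood test called 0 of 19882 genes (0.0%) in each of 3 contrasts: WT secretin minus WT, dnTGFB minus WT, and dnTGFB secretin minus dnTGFB. The smallest adjusted p was 0.14, 0.242 and 0.266 in turn, and 5263, 3859 and 3626 genes had an unadjusted p below 0.05. limma-voom also called 0 in each, and DESeq2 called 2418, 742 and 431. The first and the second contrast share the WT libraries, and the second and the last share the dnTGFB libraries. The sarcomere genes gave median log2 fold changes of 5.66, 5.40 and -4.76 in the 3 contrasts, and 0 of 26 passed in each. Actc1 gave 5.71 ± 1.89 (SE, adjusted p = 0.14), 5.51 ± 1.87 (adjusted p = 0.242) and -4.79 ± 1.80 (adjusted p = 0.266). Without the 4 heart-muscle-rich libraries, which leaves 1 WT secretin and 1 dnTGFB library that are assumed to vary like the others, the sarcomere medians were -0.59, -0.81 and 1.47, and again 0 genes were called, with 312, 50 and 256 at an unadjusted p below 0.05. The sarcomere medians were thus far smaller in size when the 4 libraries were left out. Their signs changed, but they rest on groups with 1 library, and no direction is read from them. Without WT secretin 1 alone, edgeR called 4739 of 21210 genes in WT secretin minus WT, 3015 higher (14.2%) and 1724 lower (8.13%), 22.3% in all. At the adjusted p alone 16.9% were higher and 8.76% lower, among them 26 of 26 sarcomere genes higher and 29 of 30 hepatocyte genes lower. That contrast then sets 2 heart-muscle-rich libraries against 3 other ones, which is the choice by Actc1 itself, and nothing is read from it.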

How the data were processed

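Raw counts per gene, deposited by the authors as 1 table per library, were used as given. RNA was poly(A)-selected from 500 ng of total RNA per the labels' protocols, and no aligner, counter or genome build was given in the sources used here. Of 49315 gene IDs, 49056 are in GENCODE M21 (GRCm38), from which symbols and positions were taken. Groups follow the titles. CPM was the count over the library total, and the 4 libraries were compared with the 8 by order and median on log2(CPM + 0.1), without a test. Labelled contrasts used edgeR 4.0.16 (TMM, filterByExpr, robust quasi-likelihood, Benjamini-Hochberg) in R 4.3.3, with DESeq2 1.42.0 and limma 3.58.1 as alternatives. Standard errors were the log2 fold change over the square root of F. On simulated counts made for the contrast within the heart-muscle-rich libraries, 178 of 194 changed genes among 19796 were recovered, with 6 false calls. The members and the 46 gene lists were chosen with earlier results of these data known. Genes named are the study's markers, up to 5 per list by highest CPM, the 12 widest gaps in each direction and the 4 largest called changes per direction, and other list members named were chosen after their values were seen. A few genes are not reported here.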

Additional observations from a re-analysis of the deposited data

Results flagged for a closer look

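Among the 4 heart-muscle-rich libraries, the summed sarcomere level of WT secretin 3, 86500 CPM, lay above the other 3 (76600 to 78090 CPM). The summed squamous epithelial level of WT secretin 2, 191.9 CPM, also lay above the other 3 (176.0 to 176.8 CPM). Of 92 such groups of list sums examined these 2 were flagged as outliers. Chance gives about 1 in 20 groups, so 2 of 92 is no more than chance would give.

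The male library dnTGFB 3, used above only in the ranges of the sex-linked genes, had a summed sarcomere level of 23940 CPM, against 408.3 to 1779 CPM in the other 11 male libraries. Its summed level of neuronal genes was also high, at 9041 CPM against 136.8 to 670.8 CPM. It was the shallowest male library, with 1429218 counts where the male median was 21280000.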

How the results depend on the processing

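The count of genes apart between the heart-muscle-rich and the other female libraries (5702) stayed within 1.5 times under TMM, other totals, other filters, other reference libraries and leaving out each of the 4 libraries (5558 to 6501), and moved to 2543 with a 4-fold limit. Leaving out WT 2 and dnTGFB secretin 1, an alternative chosen after seeing the data, gave 7519. Within the 4 libraries, the count of 355 became 998 with DESeq2, 1281 without the low-count filter, 206 with limma-voom and 48 with library totals, and 202 (without WT secretin 2) to 1206 (without dnTGFB 2) when a library was left out, and the cause was not tested. In the contrasts of all female libraries, DESeq2 called 2418 genes (WT secretin minus WT), 742 (dnTGFB minus WT) and 431 (dnTGFB secretin minus dnTGFB) in place of 0, and leaving out a library gave 0 to 4739 for the first, the highest without WT secretin 1, and 0 for the other two. A replicate block on the replicate numbers called 0 in each of the 3 contrasts. The numbers did not pair the samples: of 18 same-numbered pairs 5 correlated above 0.1, and 2 of 12 libraries correlated best with their own number. Within the 4 libraries the groups share 1 number, so no block could be fitted. Under TMM 13 of 240 log2 ratios of single genes between the sides turned their sign, none of them apart, and of 45 list medians 1 did, that of the imprinted genes (not described above). In the shallowest library, of 6483182 counts, levels near 1 CPM rest on few counts.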

Other observations

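Lists of other tissues held single genes that were higher in the heart-muscle-rich libraries. Hopx, a homeodomain protein of heart muscle and of lung epithelium, read 285.1, 284.4, 236.5 and 276.4 CPM in WT secretin 2, WT secretin 3, dnTGFB 1 and dnTGFB 2 against 10.42 to 27.97 CPM in the other female libraries. Dbh, the enzyme that makes noradrenaline, was the 1 of 18 kept neuronal genes that was higher, at 6.731, 6.758, 5.93 and 5.197 CPM against 0 to 0.511, while 14 were lower. Aqp4, the water channel of astrocytes and muscle, read 6.0, 6.586, 5.444 and 7.023 CPM against 0.304 to 2.95. Afp, the fetal liver protein, was at or below 0.269 CPM in the 4 libraries.

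Scgb1a1, the secretoglobin of airway club cells, read 67.37 CPM in WT secretin 3 and no more than 1.388 CPM in any other female library. WT 2 and dnTGFB secretin 1 carried summed squamous epithelial levels of 4522 and 4503 CPM and summed placental levels of 1090 and 1128 CPM.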
